A study of Mus musculus with 2 samples.

Results

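The colony-stimulating factors and their receptors were followed through the cells of a mouse ovarian tumor to see which cells carried the RNA of the macrophage growth factors and which cells carried the RNA of the receptors. The 7 genes, of 32285 listed, were chosen by name: the ligands Csf1, Il34 and Csf3 and the receptor genes Csf1r, Csf2ra, Csf2rb and Csf3r. All 7 had at least 1 unique molecular identifier (UMI, 1 counted RNA molecule) in the cells kept here. Tumors came from female C57BL/6 mice of 6 to 8 weeks whose peritoneal wall had been abraded and which then received syngeneic p53-/-, myc, Hras ovarian cancer cells into the peritoneal cavity. Both groups carried the same wound and the same cancer cells, a single engineered line, and from 1 day after the cells they were injected daily with either control IgG or an Activin A neutralizing antibody. The series' design text gives 7 and 8 mice and 10 days of treatment, but the study's own text gives other numbers of mice and days, so that the size of each pool is uncertain. Tumors at the abrasion site were pooled within a group and sequenced with 10x Genomics 3' chemistry without enriching any cell type, so that each group is 1 library. No difference between the libraries has a replicate check, no p-value was computed, and the intervals given are 95% intervals that cover counting error only.

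CSF1 and IL-34 are the 2 ligands of the CSF1 receptor, a tyrosine kinase that monocytes and macrophages need for survival and proliferation. CSF3, also called G-CSF, drives the production and release of neutrophils through the CSF3 receptor. Csf2ra encodes the chain that binds GM-CSF (the product of Csf2), and Csf2rb the signalling chain that GM-CSF, IL-3 and IL-5 receptors share.

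To set the genes in place, the sequence before the transcription start was read for the stromal ligand Csf1 and the myeloid receptors Csf3r and Csf2ra, the 3 members with an entry among the RefSeq promoters of GRCm38.p6. Capitals mark each match to GAGGAAG, the purine-rich core that the myeloid transcription factor PU.1 (the product of Spi1) is known to bind. The stretches are 120 bases for Csf1 (chr3:107760470-107760589, minus strand) and Csf2ra (chr19:61228419-61228538, minus strand), each ending at the base before the start, and 30 bases around the match for Csf3r (chr4:126024561-126024590, plus strand).
Csf1: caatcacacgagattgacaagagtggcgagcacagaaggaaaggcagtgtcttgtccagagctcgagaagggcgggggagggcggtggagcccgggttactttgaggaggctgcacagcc
Csf3r: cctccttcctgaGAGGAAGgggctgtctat
Csf2ra: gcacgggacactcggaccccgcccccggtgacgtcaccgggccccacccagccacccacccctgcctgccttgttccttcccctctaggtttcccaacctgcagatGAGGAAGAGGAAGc
Windows ran from 250 bases before to 50 bases after the start, and the Csf1 window held the 7 letters on neither strand. In the 120 bases before the RefSeq start, the letters occurred once for Csf3r, 86 bases before that start. Csf2ra had 2 matches there that overlap by 1 base, the first 14 bases before the RefSeq start. The GENCODE annotation places 2 of the starts further upstream. Its Csf3r gene begins at 126024550, so the printed stretch with its match lies inside that gene. Its Csf2ra gene begins at 61228429, so the second match lies inside it and the first reaches into it. Whether these matches precede the start thus depends on the annotation. Further matches after the start were not counted for Csf3r and Csf2ra. Of all 32851 windows of 300 bases, 13.6% held the letters, so a match describes the sequence and is not evidence of binding. Il34, Csf3, Csf1r and Csf2rb were not matched.

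The libraries held 98174850 UMIs (control IgG) and 74117462 UMIs (antibody). The study's filters (1000 to 8500 detected genes, a total of 1000 to 100000 UMIs, mitochondrial share up to 10%) left 8770 and 6386 cells, with a median of 5719 and 4660 UMIs, and 19 cell barcodes occurred in both libraries. Cells were sorted into classes by scores of marker genes that excluded the 7 members, which gave 275 and 265 stromal cells, 364 and 390 cancer-like cells, 5648 and 4501 lymphoid cells and 2012 and 839 myeloid cells. A class cut from a score is a range: 5 and 1 stromal, 4 and 5 cancer-like, 135 and 105 lymphoid and 41 and 9 myeloid cells lay near the cut. Myeloid marker genes had a median over cells of 6.09 and 4.37 UMIs per 10000 in stromal cells, 1.04 and 0.842 in cancer-like cells, 8.25 and 8.06 in lymphoid cells and 89.7 and 70.1 in myeloid cells. All 24 stromal, 6 cancer-like, 20 lymphoid and 42 myeloid markers were higher in their own class or type in both libraries, which the sorting by these same genes fixes in large part and which is therefore no independent check. Values are UMIs of a gene per 1000000 UMIs of the cells summed (CPM), a level per unit of RNA rather than per cell, and pairs of values are given as control IgG and then antibody.

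Csf1 RNA was concentrated in the stroma. Stromal cells had 190 CPM (interval 179 to 202, 1008 UMIs) in the control IgG library and 167 CPM (155 to 180, 700 UMIs) in the antibody library. Cancer-like cells had 13.7 and 15.5 CPM, myeloid cells 7.41 and 8.89 CPM, and lymphoid cells 3.83 and 4.54 CPM. The order of the classes was therefore the same in both libraries, and the stromal interval overlapped none of the others. The stromal level was 13.9-fold (12.1 to 15.9) and 10.7-fold (9.39 to 12.3) that of cancer-like cells, and 25.7-fold (21.2 to 31.3) and 18.7-fold (14.2 to 25.2) that of myeloid cells. Over both libraries the stromal over myeloid log2 ratio was 4.52, and 3.23 when each cell's CPM was averaged instead of summing UMIs.

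Among stromal types, fibroblasts (230 and 240 cells) led with 212 and 191 CPM of Csf1, and mesothelial cells (35 and 23 cells), which line the peritoneum, had 99.6 and 86.8 CPM. The fibroblast level was 2.13-fold and 2.20-fold the mesothelial one. Within the fibroblasts, in a split made after the values were seen, cells high in the contractile genes Acta2 and Tagln had 296 CPM (268 to 325) in 44 cells of the control IgG library, and 84 Csf1 UMIs in 13 cells of the antibody library. Fibroblasts with Pi16 or Car3 had 170 and 153 CPM, and the others 170 and 204 CPM. The contractile cells thus ranked first in the control IgG library, and in the antibody library they were too few to rank.

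Csf1 UMIs were present in 78.5% and 75.1% of stromal cells and in 1.15% and 2.16% of macrophages, the cells that respond to CSF1. Stromal cells were also deeper, with a median of 17375 and 10691 UMIs against 7294.5 and 6284 in myeloid cells. With cells thinned to 2000 UMIs, which left out 3 and 2 stromal, 1 and 4 cancer-like, 43 and 16 myeloid and 129 and 168 lymphoid cells of lower depth, the expected share was 27.9% and 27.3% of stromal, 2.61% and 2.85% of cancer-like, 1.05% and 1.49% of myeloid and 0.773% and 0.806% of lymphoid cells. The gap between stroma and the other classes was thus present at equal depth.

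**Figure D1:**
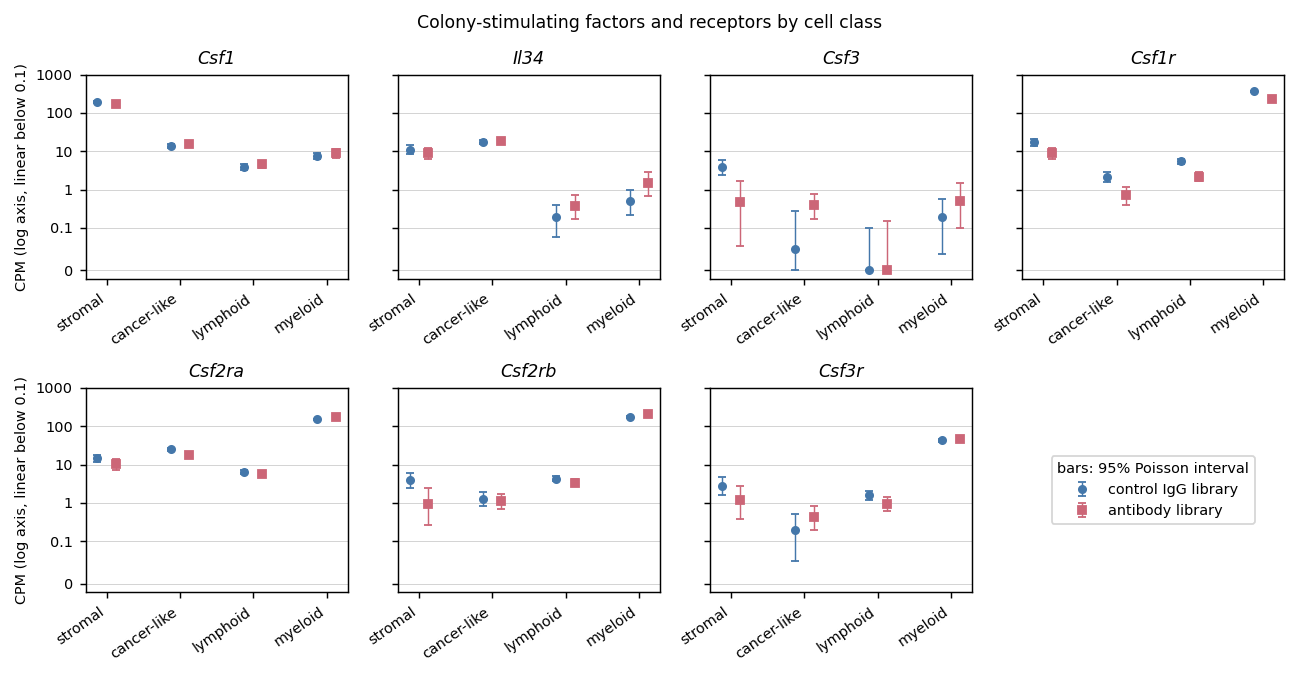
Level of each of the 7 genes (CPM) in the stromal, cancer-like, lymphoid and myeloid cells of the control IgG and antibody libraries, with points for the level and bars for the 95% counting interval. Csf1 peaked in stromal cells, Il34 in cancer-like cells, and the 4 receptor genes in myeloid cells.

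Macrophages themselves had little Csf1, with 16 UMIs (1.69 CPM) in 1129 cells and 6 UMIs (3.11 CPM) in 278 cells. Monocytes had 7.58 and 4.53 CPM. T cells had 3.96 and 4.76 CPM and NK cells 1.89 and 1.93 CPM. The barcodes with under 100 UMIs, which hold free RNA, had 11.8 and 16.9 CPM of Csf1, above all of these immune levels. Only a part of a cell's UMIs is free RNA, however. With that part estimated from Col1a1, free RNA would give lymphoid cells 0.498 and 0.25 CPM of Csf1. Myeloid cells would get 0.49 and 0.416 CPM, so free RNA would make up a small part of either class level. Some rare kept cells stood out by their UMI numbers: 9 and 5 mast cells or basophils held 11 and 26 Csf1 UMIs, and 19 and 15 cells of the neutrophil type held 52 and 9.

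Il34, the second CSF1 receptor ligand, was highest in the cancer-like cells among the 4 classes. These had 17.6 CPM (354 UMIs) and 18.1 CPM (378 UMIs), and 42.9% and 38.2% of them held an Il34 UMI. Those shares reflect deep cells, with a median of 55250 and 54438 UMIs. With cells thinned to the same depth as for Csf1 above, the expected share was 3.57% and 3.52% of cancer-like cells. It was 2.12% and 1.64% of stromal cells. Stromal cells had 10.9 CPM (58 UMIs) and 8.81 CPM (37 UMIs). The cancer-like level was 1.61-fold (1.21 to 2.16) and 2.06-fold (1.47 to 2.97) the stromal level, and 35-fold (17.6 to 81.7) and 12.2-fold the myeloid level. Lymphoid and myeloid cells held only 7 to 9 Il34 UMIs per class and library. Fibroblasts had 10.4 and 10.3 CPM, and mesothelial cells 14.4 and 3.67 CPM from 13 and 3 UMIs, too few to order these types. Plasmacytoid dendritic cells had 18.2 and 17.2 CPM, the same range as cancer-like cells, but from 5 and 4 UMIs. In the split of the fibroblasts made after the values were seen, those with Pi16 or Car3 had 20.6 and 9.79 CPM from 18 and 10 UMIs, so that a ranking of Il34 below the level of classes is not settled.

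Taking each class as a whole, the stroma held most Csf1 UMIs of kept cells and cancer-like cells most Il34 UMIs. Kept cells held 75.6% and 77.1% of the Csf1 UMIs of all barcodes, and 77.4% and 68.7% of the Il34 UMIs. Barcodes outside the filters, which include any above 8500 genes or 100000 UMIs, are not in the shares below. Stromal cells made up 3.14% and 4.15% of kept cells and held 63.8% (61.4 to 66.2) and 57.4% (54.5 to 60.2) of 1580 and 1220 Csf1 UMIs. Fibroblasts alone were 2.62% and 3.76% of cells with 58.0% and 51.6% of Csf1 UMIs. Cancer-like cells held 17.5% and 26.6%, lymphoid cells 8.80% and 9.02%, and myeloid cells 7.47% and 4.43%. The higher cancer-like share in the antibody library includes 58 of its 324 Csf1 UMIs that lay in 1 cell. Of Il34, cancer-like cells held 82.9% and 86.7% of 427 and 436 UMIs and stromal cells 13.6% and 8.49%. With the UMIs of both CSF1 receptor ligands added, which assumes that both RNAs are captured alike, stromal cells held 53.1% and 44.5% and cancer-like cells 31.4% and 42.4%. Of the UMIs of all genes, cancer-like cells held 20141593 of 80208236 and 20851532 of 57416419, and stromal cells 5301984 and 4198843. The cancer-like part of all UMIs was thus also larger in the antibody library. Per unit of RNA the cancer-like log2 ratio, antibody over control IgG, was 0.18 (-0.05 to 0.42) for Csf1 and 0.04 (-0.17 to 0.26) for Il34. The cancer-like shares were thus higher, while neither level differed beyond its counting interval.

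**Figure D2:**
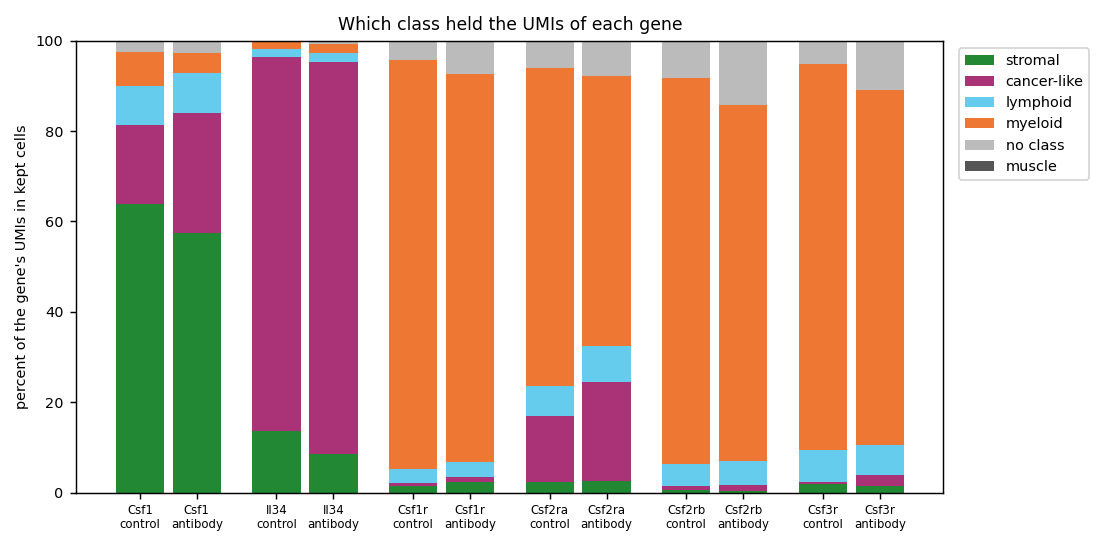
Percent of each gene's UMIs in kept cells that lay in each class, 1 stacked bar per library. Stromal cells held 63.8% and 57.4% of Csf1 UMIs, cancer-like cells 82.9% and 86.7% of Il34 UMIs, and myeloid cells 90.5% and 85.9% of Csf1r UMIs.

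Csf3 was rare everywhere, with 25 and 13 UMIs in all kept cells. Stromal cells held 21 and 2 of them (3.96 and 0.476 CPM), and 15 of the 21 came from 1 cell. Without the cell with the most Csf3 UMIs in each library, the stromal level was 1.14 CPM in the control IgG library and no UMI was left in the antibody library. Cancer-like cells held 1 and 8 UMIs and myeloid cells 3 and 3. Lymphoid cells held none, with an upper interval limit of 0.102 and 0.152 CPM and a 3-count floor of 0.0827 and 0.124 CPM. No cell type could be named as the main source at this depth.

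The receptor genes followed the myeloid cells, which held 90.5% and 85.9% of Csf1r UMIs, 70.4% and 59.8% of Csf2ra UMIs, 85.5% and 78.8% of Csf2rb UMIs and 85.4% and 78.6% of Csf3r UMIs. Counting members by the class where they were highest, and by at least 2-fold over every other class, 4 were myeloid in both libraries, against 8.15% and 7.7% of all genes tested. Stromal members past 2-fold were Csf1 and Csf3 in the control IgG library, where 11.1% of genes met that rule, and Csf1 in the antibody library, where 11.3% did. Il34 was past 2-fold for cancer-like cells in the antibody library, where 6.82% of genes were, and short of it in the control IgG library, where 7.04% were.

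Csf1r marked macrophages and monocytes. Macrophages had 448 and 344 CPM, monocytes 330 and 258 CPM, and conventional dendritic cells 24.7 and 15.8 CPM. The macrophage level was 1.36-fold and 1.34-fold the monocyte level, so the order of these types was the same in both libraries. A Csf1r UMI was present in 91.9% and 82.0% of macrophages and 81.4% and 70.4% of monocytes, and in 2.07% and 0.689% of lymphoid cells, whose median depth was 4773 and 4153 UMIs and which should lack the gene. After thinning to 2000 UMIs the shares were 57.9% and 49.5% of macrophages, 47.6% and 41.5% of monocytes, and 0.768% and 0.249% of lymphoid cells.

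In the stromal, lymphoid and cancer-like classes Csf1r was below its level in free RNA. Stromal cells had 17.4 and 9.05 CPM, lymphoid cells 5.40 and 2.19 CPM, and cancer-like cells 2.18 and 0.719 CPM, all below the 51.0 and 29.3 CPM of barcodes with under 100 UMIs. With the share of free RNA estimated from Col1a1, free RNA alone would give cancer-like cells 5.66 and 2.85 CPM, more than was counted. By the same estimate lymphoid cells would get 2.155 and 0.433 CPM. Stromal cells, with the share estimated from Ptprc, would get 9.65 and 2.29 CPM. In these 2 classes that is less than was counted. The share depended on the gene used, and those from Col1a1 and Ptprc were chosen after seeing the data. Cancer-like cells had 11.1% and 9.745% by Col1a1 but 0.344% and 0.384% by haemoglobin. Stromal cells had 18.9% and 7.82% by Ptprc but 0% and 0.318% by haemoglobin. Taking away the Col1a1 share left -3.91 and -2.36 CPM of Csf1r in cancer-like cells, which is not possible. How much of this Csf1r was free RNA is therefore not settled. Cells placed in no class had 110 and 58.7 CPM, above free RNA, and 28 and 11 skeletal muscle cells held 14 and 0 Csf1r UMIs.

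Csf2ra and Csf2rb were spread more evenly over the myeloid types than Csf1r. Csf2ra had 200 and 213 CPM in monocytes, 135 and 153 CPM in macrophages and 148 and 139 CPM in conventional dendritic cells. Mature dendritic cells had 84.7 and 96.9 CPM and plasmacytoid dendritic cells 51.0 and 17.2 CPM. Monocytes were 1.48-fold and 1.40-fold above macrophages, the reverse of the order for Csf1r. Csf2rb had 201 and 243 CPM in monocytes and 155 and 161 CPM in macrophages. Mature dendritic cells had 246 and 243 CPM of Csf2rb, and held only 1 and 6 Csf1r UMIs. Plasmacytoid dendritic cells had 135 and 232 CPM of Csf2rb.

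The cancer-like cells also held Csf2ra, without a like amount of the shared chain. Csf2ra reached 24.97 CPM (503 UMIs in 248 of 364 cells, 68.1%) and 18.1 CPM (377 UMIs in 213 of 390 cells, 54.6%), while Csf2rb had 1.29 and 1.10 CPM in the same cells. The Csf2ra level was 1.72-fold and 1.81-fold that of stromal cells and 3.85-fold and 3.20-fold that of lymphoid cells. The myeloid level was 6.09-fold and 9.34-fold higher still. Stromal cells had 14.5 and 10.0 CPM of Csf2ra beside 3.96 and 0.953 CPM of Csf2rb. More Csf2ra than Csf2rb was thus not particular to cancer-like cells. With cells carrying markers of another class left out the cancer-like level was 24.6 and 17.8 CPM. Free RNA, with its share estimated from Col1a1, would give 3.38 CPM in each library. The median cancer-like cell held 55250 and 54438 UMIs, so that the share of cells with a UMI is not comparable with that of shallower types.

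B cells were the lymphoid type with most Csf2rb, at 21.6 and 35.3 CPM from 23 and 21 UMIs. T cells had 3.66 and 2.72 CPM, so that B cells were 5.89-fold and 12.99-fold higher. The 9 and 5 mast cells or basophils, a lineage that answers to IL-3, held 15 and 13 Csf2rb UMIs. Csf2rb2, the neighbour 20030 bases away that encodes an IL-3 receptor chain of near-identical sequence, had 74.3 and 87.1 CPM in myeloid cells. How reads that match both paralogs were handled was not checked, so both levels are uncertain.

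**Figure D3:**
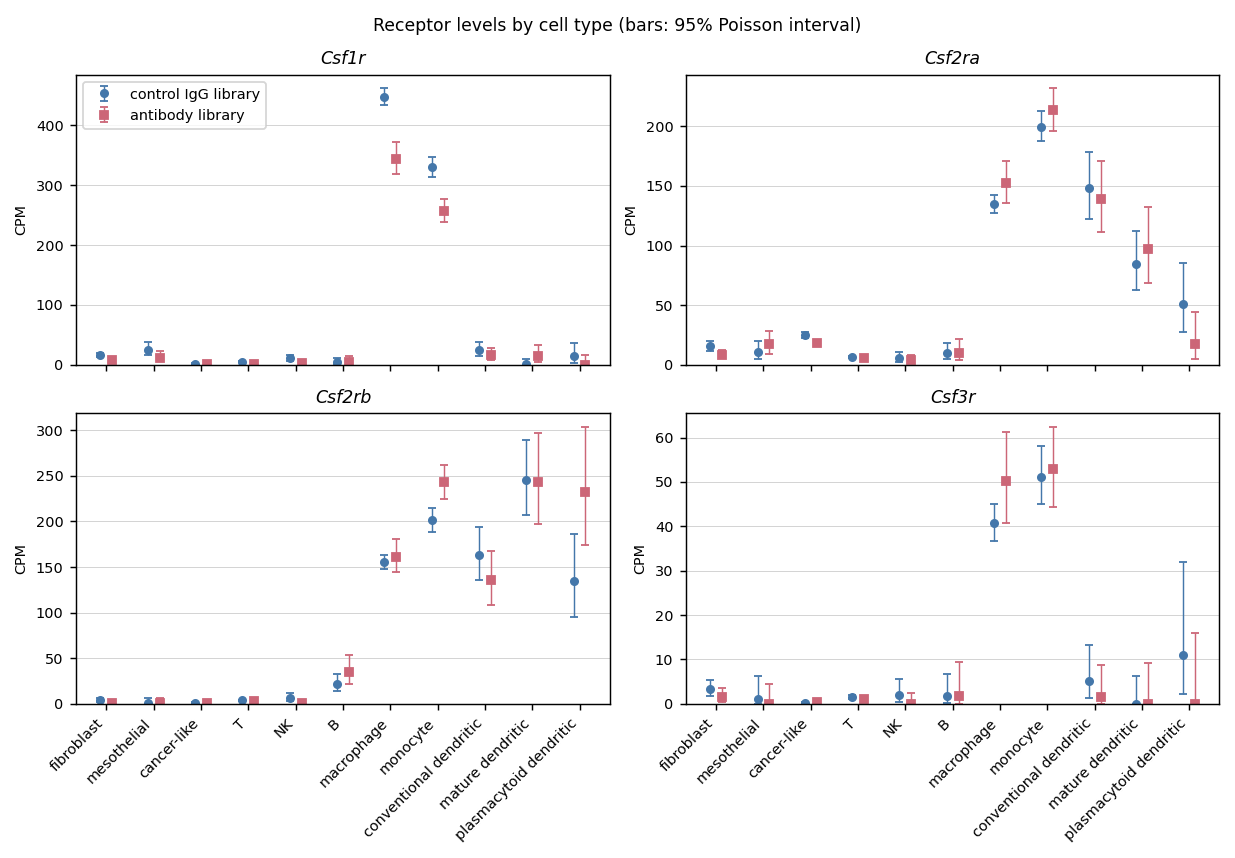
Level of Csf1r, Csf2ra, Csf2rb and Csf3r (CPM) in cell types of at least 20 cells in each library, with 95% counting intervals. Csf1r was at 448 and 344 CPM in macrophages and 24.7 and 15.8 CPM in conventional dendritic cells. Mature dendritic cells had 1.73 and 14.9 CPM of it (1 and 6 UMIs), and plasmacytoid ones 14.6 and 0 CPM (4 and 0 UMIs). Csf2rb ran only from 135 to 246 CPM over macrophages, monocytes and the 3 dendritic types.

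Csf3r, the G-CSF receptor, was found at 40.7 and 50.2 CPM in macrophages and 51.2 and 52.8 CPM in monocytes, 1.26-fold higher in monocytes in the control IgG library (log2 ratio 0.33, 0.09 to 0.57) and 1.05-fold in the antibody library (0.07, -0.31 to 0.46). A Csf3r UMI was present in 27.0% and 25.5% of macrophages against 0.531% and 0.267% of lymphoid cells. Few neutrophils passed the minimum of 1000 genes: the 19 and 15 kept cells of that type held 49 and 41 Csf3r UMIs, in 16 and 12 of them. Only 54.5% and 52.7% of the Csf3r UMIs of all barcodes lay in kept cells, compared with 91.6% and 87.3% for Csf1r and 75.6% and 77.1% for Csf1.

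The barcodes below that minimum were therefore examined, a step chosen after the values were seen. Of barcodes with at least 200 and under 1000 genes, 170 and 72 were of the neutrophil type, with a median of 1197.5 and 1333 UMIs. Of the markers that chose them, and so as a description only, S100a8, a calcium-binding protein gene of neutrophils, was present in 98.2% and 97.2% and the chemokine receptor gene Cxcr2 in 72.4% and 66.7%. S100a9 was present in 95.3% and 97.2% and Mmp9 in 79.4% and 83.3%. Retnlg was present in only 17.1% and 45.8% and Lcn2 in 17.1% and 30.6%, and Camp and Ngp had 0 UMIs. Ly6g, a neutrophil gene outside the marker list, had 4 and 2 UMIs. Col1a1 (collagen) had 4 and 3 UMIs. Of macrophage genes, C1qa had 1 and 0 UMIs and Adgre1 10 and 4. Csf3r was at 1878 CPM (1694 to 2076, 382 UMIs) and 2025 CPM (1752 to 2329, 196 UMIs), 36.7-fold and 38.4-fold the monocyte level. Csf1 was also high there, at 1155 CPM (1012 to 1313, 235 UMIs) in the control IgG library and 589 CPM (446 to 763, 57 UMIs) in the antibody library. That was 5.44-fold and 3.08-fold the fibroblast level on the CPM scale, in barcodes with far fewer UMIs.

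A Csf1 UMI was present in 47.1% and 33.3% of these barcodes. By comparison, the 100 and 140 T-cell barcodes of the same gene range, with a median of 1378.5 and 1278 UMIs, held 1 Csf1 UMI in each library, and the 74 and 27 macrophage barcodes held none. The 11 and 13 fibroblast barcodes of that range held 2 and 0 Csf1 UMIs. The 345 and 401 barcodes in no class held 53 and 18, so Csf1 there was not confined to the neutrophil type. Over kept cells and barcodes of at least 200 and under 1000 genes together, the neutrophil type held 15.3% and 5.09% of Csf1 UMIs. Fibroblasts, counted among kept cells only, held 48.9% and 48.5%. The neutrophil type held 33.2% and 39.3% of Csf3r UMIs. Csf2ra had 383 and 269 CPM and Csf2rb 344 and 248 CPM in these barcodes, and Csf1r 54.1 and 31.0 CPM from 11 and 3 UMIs.

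**Figure D4:**
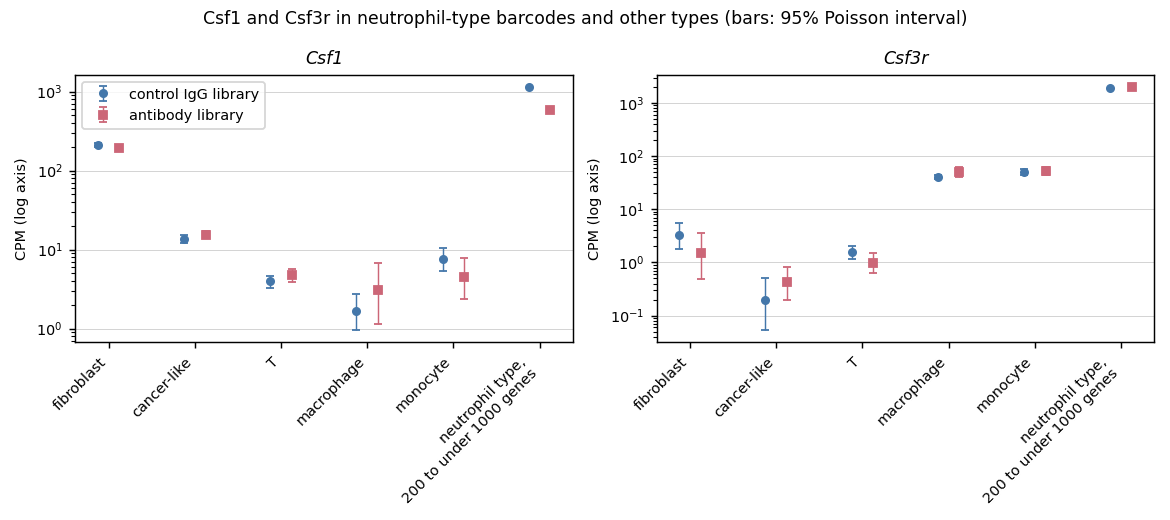
Level of Csf1 and Csf3r (CPM, log axis) in the neutrophil-type barcodes of at least 200 and under 1000 genes and in types of kept cells, with 95% counting intervals. Csf1 was at 1155 and 589 CPM in the neutrophil type against 212 and 191 CPM in fibroblasts, and Csf3r at 1878 and 2025 CPM against 51.2 and 52.8 CPM in monocytes.

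To see how the family differed with Activin A neutralized, the levels of the antibody library were divided by those of the control IgG library within each class, for genes with at least 20 UMIs over both, and a difference of at least 2-fold was counted. In stromal cells 3 of 7 members were lower by that rule, Csf3, Csf2rb and Csf3r, and 2.98% of 12835 genes were lower and 2.87% higher. The share of genes that were lower was 6.35% of 16640 with at least 1 UMI in each library, and 0.943% of 9014 with at least 100 UMIs. The 2.98% is thus not matched to the few UMIs of these 3 members. All 3 rested on few UMIs: 21 and 2 for Csf3 (log2 ratio -3.06, -6.19 to -1.02), 21 and 4 for Csf2rb (-2.06, -4.06 to -0.49), and 15 and 5 for Csf3r (-1.25, -3.06 to 0.28). The Csf3r difference was therefore not beyond counting error. The Csf3 UMIs lay in 3 cells and in 1 cell, 15 of the 21 in 1 cell, which the counting interval does not take into account. Without the top cell of each library Csf3 had no ratio. With the share estimated from Ptprc, free RNA would give 4.61 and 2.02 CPM of Csf2rb, where 3.96 and 0.953 CPM were counted. It would give 2.56 and 0.932 CPM of Csf3r, where 2.83 and 1.19 CPM were counted. The stromal log2 ratio of Csf1 was -0.19 (-0.33 to -0.05) and that of Il34 -0.31 (-0.95 to 0.31), both within 2-fold. Csf2ra was at -0.54 (-1.12 to 0.02) and Csf1r at -0.94. The median over the 7 members was -0.94, and over all genes tested 0.03. In the split of the fibroblasts made after the values were seen, the log2 ratio of Csf1 was -0.15 (-0.49 to 0.18) in those with Pi16 or Car3. In the others it was 0.26 (0.05 to 0.47), while cells high in Acta2 and Tagln numbered 44 and 13. The stromal ratio of Csf1 was not computed at a fixed mix of these cells. The receptor genes have their highest level in myeloid cells. In stromal cells the markers of all myeloid types together had a median of 6.09 and 4.37 UMIs per 10000. Lymphoid cells had 8.25 and 8.06 by the same list, so it does not measure macrophage content. Myeloid cells were 22.9% and 13.1% of kept cells. Their part in the stromal ratios was not tested.

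In cancer-like cells, 1 of 5 members tested was lower, Csf1r with a log2 ratio of -1.60 (-2.55 to -0.73), and 2.7% of 14200 genes were lower and 2.09% higher. Csf1 was at 0.18 (-0.05 to 0.42) and Il34 at 0.04 (-0.17 to 0.26), so that neither ligand differed beyond its counting interval. Without the cell with the most Csf1 UMIs in each library (20 and 58 UMIs) the levels were 12.7 and 12.8 CPM. Csf2ra was at -0.47 (-0.66 to -0.27), within 2-fold. In lymphoid cells, 1 of 5 members tested was lower, again Csf1r at -1.30 (-1.77 to -0.86), and 2.39% of 14626 genes were lower and 1.42% higher. Csf1r in the free RNA was also lower in the antibody library, 51.0 against 29.3 CPM, and the Csf1r of lymphoid cells without those carrying other markers was 2.66 and 1.09 CPM.

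In myeloid cells none of the 5 members tested reached 2-fold, and 2.8% of 12936 genes were lower and 4.57% higher. The difference of greatest size was in Csf1r, which had 367 CPM (357 to 376, 5840 UMIs) and 225 CPM (213 to 237, 1365 UMIs), a log2 ratio of -0.71 (-0.79 to -0.62). Macrophages were 1129 of 2012 myeloid cells in the control IgG library and 278 of 839 in the antibody library, and with the control mix of types, an alternative chosen after seeing the data, the antibody level was 283 CPM and the log2 ratio -0.38. Within macrophages the log2 ratio was likewise -0.38 (-0.50 to -0.26), and within monocytes -0.36 (-0.49 to -0.23). Macrophages with Pf4 or Ccl8 had 455 and 328 CPM and the other macrophages 444 and 355 CPM, in a split made after the values were seen. Csf1r was thus lower in each of these groups of cells, and the share of macrophages among myeloid cells was lower as well.

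The other receptors of myeloid cells lay close to equal in the libraries. Csf2ra had 152 CPM (2425 UMIs) and 169 CPM (1025 UMIs), a log2 ratio of 0.15 (0.04 to 0.26), and Csf2rb 173 CPM (2755 UMIs) and 202 CPM (1226 UMIs), a log2 ratio of 0.22 (0.13 to 0.32). Csf3r had 42.9 and 46.0 CPM, a log2 ratio of 0.10 (-0.11 to 0.30). In the neutrophil-type barcodes under 1000 genes, the log2 ratio was -0.97 (-1.42 to -0.55) for Csf1 and 0.11 (-0.15 to 0.36) for Csf3r.

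**Figure D5:**
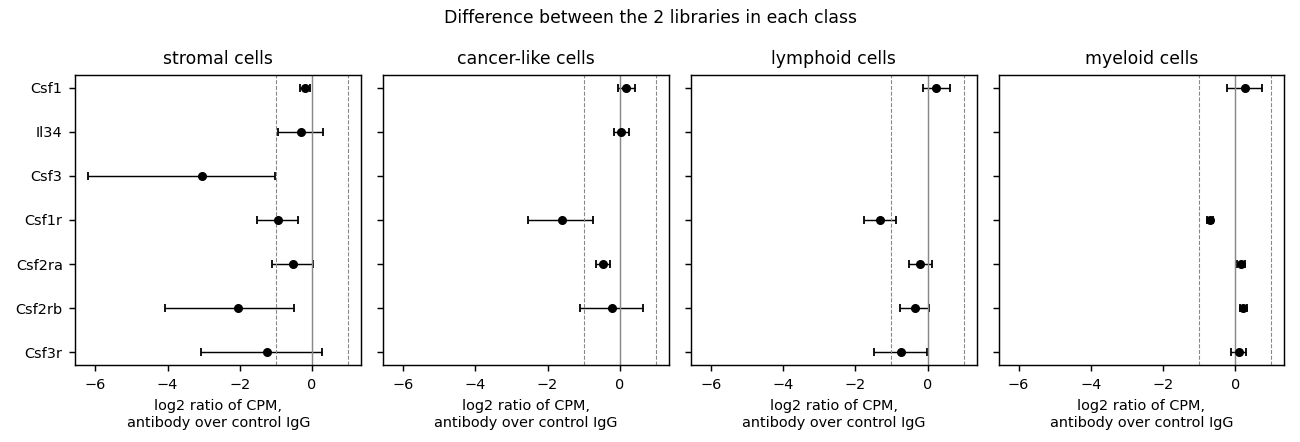
Log2 of the antibody level over the control IgG level of each member in each class, with 95% counting intervals and with lines at 0 and at 2-fold. Csf1r in myeloid cells was at -0.71, Csf1 in stromal cells at -0.19, and the widest intervals belong to members with few UMIs.

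The wider pathway was described with 36 further genes: 6 other ligands, 7 other receptors, 14 signalling genes and 9 transcription factors. Among the ligands, Kitl, which encodes stem cell factor, had 109 and 125 CPM in cancer-like cells and 43.9 and 48.1 CPM in stromal cells, and Flt3l had 31.9 and 34.6 CPM in lymphoid cells. Most Csf2 UMIs lay in lymphoid cells, 48 and 93, with 2 and 0 in cancer-like cells and none in stromal cells. Its lymphoid log2 ratio was 1.54 (1.02 to 2.07). Of 31 list genes tested in that class only Csf2 was past 2-fold, beside 1.42% of all genes higher and 2.39% lower. However, 53 of the 93 Csf2 UMIs lay in 1 cell. Without the top cell of each library the level was 1.19 and 1.65 CPM, and 36 and 28 lymphoid cells held a Csf2 UMI, 0.637% and 0.622%. A further 11 Csf2 UMIs of the antibody library lay in 1 myeloid cell.

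In stromal cells, 28 list genes were tested, of which 1 was higher and 5 were lower by 2-fold, against 2.87% and 2.98% of all genes. These shares rise when genes with fewer UMIs are let in. Among the lower ones were Csf2rb2 (32 and 1 UMIs), the signalling adaptor Tyrobp (47.5 and 19.8 CPM, log2 ratio -1.27), the kinase subunit Pik3cd (21.7 and 7.62 CPM) and Spi1 (28 and 6 UMIs). These 4 genes are known for their expression in leukocytes. Kit was the higher one, with 3 and 20 UMIs, 17 of them in 1 cell. The median log2 ratio of the list was 0.02 in stromal cells, beside 0.03 for all genes.

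Of 30 list genes tested in cancer-like cells, 1 was higher and none lower by 2-fold, near the 2.09% and 2.7% of all genes. It was Kit, with 5.06 and 11.1 CPM and a log2 ratio of 1.14 (0.79 to 1.49). Of 30 tested in myeloid cells, 2 were higher, near the 4.57% of all genes. They were the granulocyte transcription factors Cebpe (30 and 89 UMIs, log2 ratio 2.96) and Gfi1 (19 and 37 UMIs, log2 ratio 2.35). In the antibody library 70.8% of the Cebpe UMIs and 45.9% of the Gfi1 UMIs of myeloid cells lay in the 15 kept cells of the neutrophil type, and none in the 19 of the control IgG library. Those 15 cells also held 4820 UMIs of Camp and 3154 of Ngp, granule genes of immature neutrophils, in 9 cells each, while the 19 control cells held 46 and 143 in 1 cell each. Spi1 itself was at 296 and 300 CPM in myeloid cells, and Flt3, the receptor of dendritic cell precursors, at 37.3 and 67.4 CPM (log2 ratio 0.85), within 2-fold.

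Finally, for each member with at least 50 UMIs the genes with the most similar levels were found by Pearson r of log2(CPM + 1) over 22 profiles, 11 types in each library. Types of 1 library share its depth and its free RNA, so these r are descriptions. Types under 20 kept cells in either library were left out of the profiles. Mast cells or basophils were among them, as was the neutrophil type, which had the highest Csf3r level. Csf1 was most like Dclk1 (r = 0.952), Sod3 (0.948) and Lama4 (0.935), and Il34 most like D630045J12Rik (0.922), Matn2 (0.909) and Plekhh2 (0.889). Csf1r was most like Fcgr4 (0.939), Slc11a1 (0.936) and Adgre1 (0.923), the last of which is itself one of the macrophage markers used to sort the cells. Csf2ra was most like Sowahc (0.942), Card9 (0.923) and Adap2 (0.913), and Csf2rb most like Rassf4 (0.967), Rp2 (0.966) and Pirb (0.962). For Csf3r they were F13a1 (0.961), a monocyte marker used in sorting, F10 (0.954) and Fcgr4 (0.952), and Csf3 had too few UMIs.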

How the data were processed

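The deposited matrices hold unnormalized UMI counts for every barcode, which the authors made with Cell Ranger (version 7.0.1 and genome mm10 per the submitters' processing notes) from 1 pooled library per group. The matrix headers name another Cell Ranger release, and labels and methods name different versions of the 3' chemistry. Counting 1 molecule once removes PCR duplicates, and 3' counts carry no length scaling. Cells were kept by the study's limits, which removed most neutrophil-type barcodes of at least 200 genes. Each cell was sorted by marker scores scaled to the 20 highest cells, with at least 3 markers and a margin of 0.05 over the next class. No doublet caller was run. Cells with a second score of at least 0.5 of the first were left out as an alternative. The gate and a Leiden clustering without the members placed 14130 of 14294 cells (98.9%) alike. Counts were summed per class and library, with exact Poisson intervals for levels, exact conditional binomial intervals for ratios and exact (Clopper-Pearson) binomial intervals for shares. The floor of an undetected gene is 3 counts. Types under 20 cells are given as UMIs only. Scripts were tested on simulated data. Genes named are the 7 members, a list of 36 pathway genes, markers and the 3 genes most like each member, and 1 gene of the pathway list is not reported here by name. The members and lists were chosen with earlier results of these data known. Alternatives were thinning, the mean over cells, stricter gates, clusters, leaving out mixed cells and subtracting free RNA. Python 3.11.15, numpy 2.4.6, scipy 1.17.1, pandas 2.3.3 and leidenalg 0.10.2 were used.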

Additional observations from a re-analysis of the deposited data

Results flagged for a closer look

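Signals of 2 members stood in barcodes that the comparisons of kept cells do not use. Neutrophil-type barcodes of at least 200 and under 1000 genes had, with control IgG and then with the antibody, 1155 and 589 CPM of Csf1 and 1878 and 2025 CPM of Csf3r. Free RNA, in barcodes with under 100 UMIs, had 11.8 and 16.9 CPM of Csf1 and 13.5 and 11.9 CPM of Csf3r. Csf1 was present in 47.1% and 33.3% of the neutrophil-type barcodes. In the same gene range it was present in 1.00% and 0.714% of T-cell barcodes and in 7.54% and 2.74% of barcodes in no class. The granule genes Camp and Ngp had 0 UMIs in the neutrophil-type barcodes in both libraries.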

How the results depend on the processing

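Of 141 recomputed values of 20 results, 112 moved by less than the counting interval, 29 moved and 0 changed direction. Some of these results are percents of UMIs, which have no direction, and the ratios between classes were far from equal. The lack of reversals therefore bears mainly on the log2 ratios between the libraries. No paired analysis was possible because the libraries are single pools of mice, and for the same reason no replicate could be left out. The stromal log2 ratio of Csf1 (-0.19) was -0.031 with cells thinned and -0.37 with free RNA estimated from Ptprc removed, an estimate (from Col1a1 for the other classes) chosen after seeing the data. The myeloid log2 ratio of Csf1r (-0.71) was -0.50 as a mean over cells and -0.41 thinned. The log2 of stromal over myeloid Csf1 (4.52) was 3.23 as a mean over cells and 4.76 without free RNA. The stromal percent of Csf1 UMIs in the antibody library (57.4) was 62.7 without mixed cells. The log2 of myeloid over lymphoid Csf1r (6.31) was 7.08 with the stricter gate, 7.52 by clusters, 7.38 without mixed cells, 6.86 as a mean over cells and 6.95 without free RNA. In that order the values were 4.93, 5.19, 5.04, 5.03 and 4.92 for Csf2ra (4.67), 6.22, 6.66, 6.35, 6.10 and 5.84 for Csf2rb (5.52, thinned 5.83), and 5.46, 6.83, 5.77, 5.60 and 5.58 for Csf3r (5.05, thinned 5.60). The cause of these shifts was not tested. Counts of genes past 2-fold in stromal, cancer-like, lymphoid and myeloid cells (750, 681, 558 and 953) were 2181, 2242, 2229 and 2615 with at least 1 UMI in each library, and 201, 138, 108 and 314 with at least 100 UMIs. Free RNA estimated from haemoglobin gave no value for antibody myeloid cells, where its share came out at 163%, and Csf3 in stromal cells had no ratio without the top cell. Depth limits Csf3, all members in types under 20 cells, and the receptors outside myeloid cells.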
